A study of Mus musculus with 12 samples.

Results

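Gene expression at the end of 2 h of fluid flow shear stress was compared with that of unsheared cells, in 6 of the 12 arrays of the series: 3 labelled End and 3 labelled Control. The comparison took every row of the deposited table that names 1 gene, 14996 of 23332 rows, as the End mean minus the Control mean of the log2 values. The cells were 1 mouse podocyte line, conditionally immortalized with the thermosensitive tsA58 mutant T antigen; podocytes are the epithelial cells that wrap the filtering capillaries of the kidney. The line was grown in permissive conditions with γ-interferon, differentiated at the non-permissive temperature without it on glass slides, several to a dish, and used on day 14. End cells received shear of 2 dynes/cm2 (75 ml/min) for 2 h and were harvested when it stopped. Control cells received no shear; the labels place them in the same hood and incubator but also describe samples obtained before shear, so their harvest time is not settled. Post-2hr and Post-24hr cells, sheared likewise and returned to their original medium for 2 h or 24 h, are used here only beside the End values. Whether the 3 samples in each group were separate cultures is not stated, so p-values measure only how far these samples vary, and that variation may be technical.

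A cell that is stretched, sheared or given a growth factor switches on a first wave of genes without making new protein. Kinase cascades ending in ERK and other kinases act on transcription factors already present, such as SRF with its ternary complex partners and CREB, and the wave encodes further transcription factors (FOS, JUN and EGR proteins) together with the phosphatases and mRNA decay proteins that end it. In podocytes, fluid shear is also known to raise COX2, the product of Ptgs2, and prostaglandin E2 signalling through the EP2 receptor, the product of Ptger2.

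A first principal component with 42.41% of the variance separated replicate 1 of each group from replicates 2 and 3, so differences are also given within replicate 1 and within replicates 2 and 3. Array medians lay between 6.928 and 7.115. Of 13 measured podocyte markers, 7 had higher and 6 lower means in End cells, with a median difference of 0.01. Means were higher for 59.2% of all genes. Nphs1, which encodes the slit diaphragm protein nephrin, had 6.55, 6.59 and 6.58 in the End arrays, against 6.57, 6.55 and 6.76 in the Control arrays. Wt1, a podocyte transcription factor, had 7.34, 7.41 and 7.36 in the End arrays, against 7.19, 7.36 and 7.46 in the Control arrays. The groups overlapped for both, and as no detection calls were used, it is not known whether such values lie above background. Median differences of leukocyte, endothelial, mesangial and fibroblast, tubule and parietal epithelial markers lay between -0.04 and 0.05. On bulk arrays, fewer cells expressing a gene and less RNA per cell cannot be told apart.

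Transcripts of the first wave had the largest differences. Of 14860 genes, 20 were higher in End cells by more than 1 log2 unit (0.135%) and 1, Adm, was lower by as much (0.00673%). No row passed an adjusted p of 0.05 in limma's test over all 23332 rows (0.0% called). The lowest adjusted p was 0.425, which Junb and Ier3 had. At an unadjusted p under 0.05 there were 845 rows (3.62%), 470 higher (2.01%) and 375 lower (1.61%). With replicate number as a block there were 1690 (7.24%), 1016 higher (4.35%) and 674 lower (2.89%), and the lowest adjusted p with the block was 0.208. For a single gene, an exact permutation of 3 against 3 arrays cannot give a two-sided p below 0.10, so for most genes the array values and the standard error (SE) of the difference are given without a test. All 3 End values lay above all 3 Control values for 808 genes (5.44%), and all below for 282 (1.9%). Means were higher for 59.2% of the genes and lower for 40.8%.

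**Figure D1:**
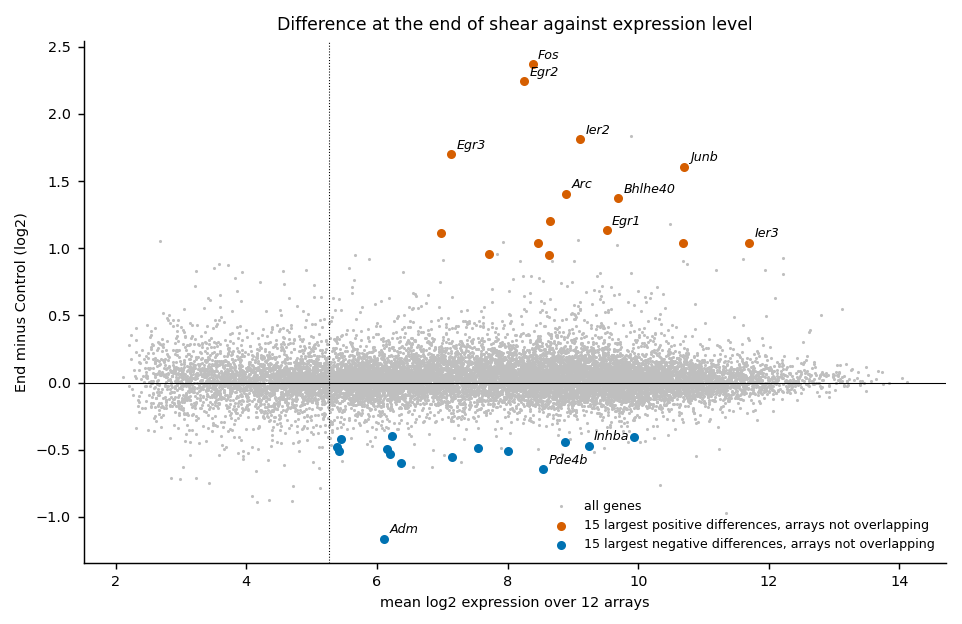
Difference of mean log2 expression, End minus Control, plotted against mean log2 expression over the 12 arrays for 14860 genes (grey), with the 15 largest positive (orange) and 15 largest negative (blue) differences among genes whose arrays did not overlap and whose level was at or above the 25th percentile (dotted line). The highest points are Fos at 2.37 and Egr2 at 2.24, and the lowest is Adm at -1.16.

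Fos encodes the subunit of the AP-1 transcription factor that pairs with JUN proteins. It had log2 values of 9.67, 9.45 and 9.82 in the End arrays of replicates 1, 2 and 3, against 6.02, 7.78 and 8.03 in the Control arrays. The End arrays lay close together and above every Control array, while the Control array of replicate 1 was far below the other two. The difference was 2.37 ± 0.62 (SE), a 5.16-fold higher level, with a difference of 3.65 in replicate 1 and 1.73 in replicates 2 and 3. Junb, the AP-1 subunit JunB, had 11.52, 11.73 and 11.33 in the End arrays, against 9.44, 10.20 and 10.12 in the Control arrays. Its End arrays again lay above all Control arrays, with a difference of 1.61 ± 0.23 and a 95% interval of 1.09 to 2.13. Of 13 measured AP-1 subunits, 11 had higher means and 5 did not overlap as higher, beside 59.2% and 5.44% of all genes. Their median difference was 0.31 (0.20 without Control replicate 2), beside a median of 0.02 over all genes. The other 3 of the 5 were Jun (0.71 ± 0.42), Fosl1 (0.49 ± 0.18) and Mafk (0.36 ± 0.13, named after its values were seen). Jun differed by 1.61 in replicate 1 and 0.26 in replicates 2 and 3, with Control replicate 1 low at 8.45. Fosl1 differed by 0.23 and 0.62, and its lowest End value (8.16) barely exceeded its highest Control value (8.15). Atf3, also named after its values were seen, differed by 0.34 ± 0.66 with overlapping arrays.

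The EGR zinc-finger factors, their partners and other early genes formed the list with the highest median among the 46 described here. Of 18 members, 15 had higher means (59.2% over all genes), with a median of 0.48. Among the 18, 11 did not overlap as higher (5.44% over all genes) and 0 as lower (1.9% over all genes). The median was 0.77, 0.62 and 0.29 in the pairs of replicates 1, 2 and 3. Egr2 had 8.56, 10.09 and 9.34 in the End arrays, against 6.50, 7.43 and 7.32 in the Control arrays. Replicate 1 was the lowest array in both groups, and the lowest End value still exceeded the highest Control value, with a difference of 2.24 ± 0.63. Egr3 had 7.55, 8.21 and 7.65 in the End arrays, against 5.43, 6.40 and 6.49 in the Control arrays, which did not overlap. Egr1 had 9.85, 10.00 and 9.86 in the End arrays, against 7.79, 9.23 and 9.29 in the Control arrays. For Egr1 the arrays did not overlap, but the difference was 2.06 in replicate 1 and 0.67 in replicates 2 and 3. Nab2 encodes a co-repressor that binds EGR proteins; it was chosen after its values were seen, and differed by 0.66 ± 0.18.

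Ier2, an early nuclear protein, had 10.18, 10.02 and 9.57 in the End arrays, against 7.51, 8.56 and 8.28 in the Control arrays. Arc, known in neurons for trafficking of synaptic receptors, had 8.88, 10.29 and 9.45 in the End arrays, against 7.78, 8.18 and 8.43 in the Control arrays. Neither gene's groups overlapped, and their differences were 1.81 ± 0.39 and 1.41 ± 0.43. Btg2, an anti-proliferative protein that recruits the deadenylase complex to mRNAs, had 12.26, 12.41 and 12.39 in the End arrays, against 11.09, 11.78 and 11.69 in the Control arrays. The End arrays of Btg2 were all higher, by 0.84 ± 0.23.

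**Figure D2:**
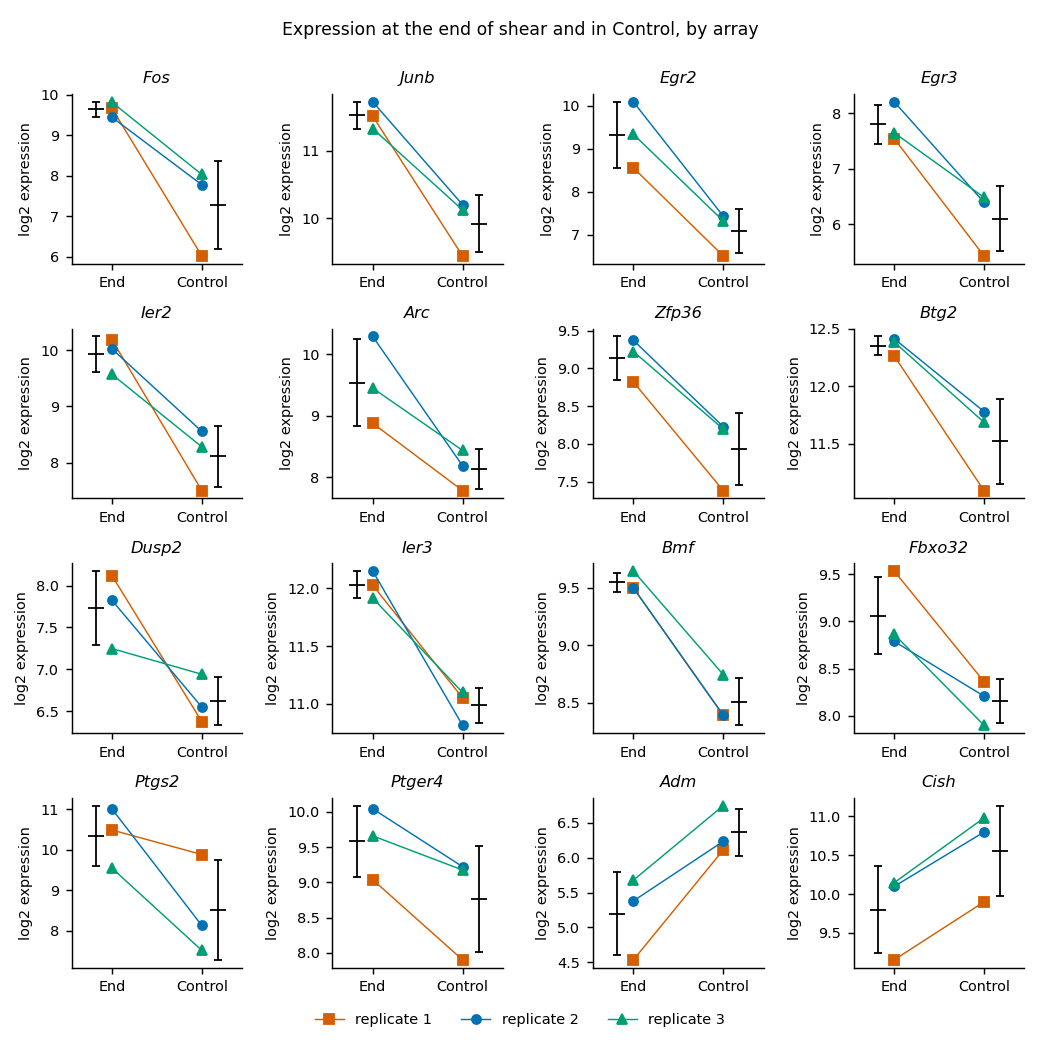
Log2 expression of 16 genes in the End (left) and Control (right) arrays, with lines joining arrays of the same replicate number (squares, circles and triangles for replicates 1, 2 and 3) and black bars for the mean ± SD of 3 arrays. Fos, Junb, Egr2, Egr3 and Ier2 are higher in all End arrays than in any Control array, Ptgs2, Ptger4 and Cish overlap, and Adm is lower in all End arrays.

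Promoter sequences are shown for 6 members of the early gene and MAP kinase feedback lists whose arrays did not overlap, since these differed together. Of 18 such members, 12 had a promoter entry that could be used, and the 6 with the largest differences among these were taken. Egr1, whose difference of 1.13 exceeds those of Dusp2, Ier3 and Btg2, is not shown. Each run is the 250 bases before the RefSeq start (GRCm38.p6), written 5′ to 3′ on the gene's strand. Fos lies at chr12:85473640-85473889 (+), Egr2 at chr10:67537619-67537868 (+), Junb at chr8:84978749-84978998 (-), Dusp2 at chr2:127335909-127336158 (+), Ier3 at chr17:35821463-35821712 (+) and Btg2 at chr1:134079156-134079405 (-). RefSeq lists 5 starts for Egr2, and this window overlaps 2 of the others. Capitals mark matches on either strand to the cAMP response element (CRE, TGACGTCA), its short form TGACG, which lies within it, the AP-1 site (TGACTCA or TGAGTCA), the EGR site (GCGTGGGCG), the CArG box bound by SRF, or the NF-kB site.
Fos: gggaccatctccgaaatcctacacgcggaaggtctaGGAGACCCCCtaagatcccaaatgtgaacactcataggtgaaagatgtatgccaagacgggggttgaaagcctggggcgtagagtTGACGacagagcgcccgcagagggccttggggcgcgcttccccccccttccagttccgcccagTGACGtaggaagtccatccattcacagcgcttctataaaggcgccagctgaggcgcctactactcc
Egr2: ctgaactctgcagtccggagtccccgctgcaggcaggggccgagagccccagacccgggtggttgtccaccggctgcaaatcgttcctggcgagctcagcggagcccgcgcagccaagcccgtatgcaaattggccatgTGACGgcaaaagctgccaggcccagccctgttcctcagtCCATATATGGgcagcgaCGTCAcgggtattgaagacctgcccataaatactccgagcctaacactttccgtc
Junb: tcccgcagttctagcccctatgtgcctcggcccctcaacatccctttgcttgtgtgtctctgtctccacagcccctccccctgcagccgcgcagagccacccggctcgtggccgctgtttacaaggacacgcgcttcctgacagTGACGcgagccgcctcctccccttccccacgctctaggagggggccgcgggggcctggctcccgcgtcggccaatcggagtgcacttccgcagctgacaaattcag
Dusp2: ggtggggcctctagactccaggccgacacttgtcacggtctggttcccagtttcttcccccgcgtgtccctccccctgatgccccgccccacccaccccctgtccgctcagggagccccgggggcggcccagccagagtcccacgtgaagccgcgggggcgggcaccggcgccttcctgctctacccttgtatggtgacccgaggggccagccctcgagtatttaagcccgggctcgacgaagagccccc
Ier3: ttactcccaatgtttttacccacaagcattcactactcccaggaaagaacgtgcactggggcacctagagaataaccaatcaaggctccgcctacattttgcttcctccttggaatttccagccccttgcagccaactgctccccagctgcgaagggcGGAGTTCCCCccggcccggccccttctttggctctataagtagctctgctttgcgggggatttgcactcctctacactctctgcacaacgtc
Btg2: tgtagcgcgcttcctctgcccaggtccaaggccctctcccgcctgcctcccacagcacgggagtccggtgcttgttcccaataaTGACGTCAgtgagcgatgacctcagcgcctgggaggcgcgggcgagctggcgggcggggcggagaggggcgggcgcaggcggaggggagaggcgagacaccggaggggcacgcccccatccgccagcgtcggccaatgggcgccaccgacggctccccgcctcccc
The short CRE was found in 4 of the 6 windows, against 17.8% of all 32851 promoter windows of that length. The full CRE was found in 1 of the 6 (Btg2), against 1.55% of all windows. The CArG box was found in 1 (Egr2), against 1.47%, and the NF-kB site in 2 (Fos and Ier3), against 3.9%. None of the 6 held the AP-1 site (4.46% of all windows) or the EGR site (0.536%), which says only that those letters are not in these windows. A match is a description of the letters, not a bound site. Among 17 measured NR4A receptors and cAMP-CREB targets, 11 had higher means, 2 did not overlap as higher and 1 as lower. Over all genes these shares were 59.2%, 5.44% and 1.9%. The median of that list was 0.09, and 0.007 in replicates 2 and 3. In all pairs, 6 of its members were higher and 5 lower. Its member Nr4a1 differed by 1.43 ± 0.64 with overlapping arrays.

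Among genes that oppose the wave, a few did not overlap as higher and none passed the test. Dusp2, a nuclear phosphatase of MAP kinases, had 8.12, 7.82 and 7.25 in the End arrays, against 6.37, 6.55 and 6.94 in the Control arrays. The groups did not overlap, and the gap was widest in replicate 1 (1.75) and narrower in replicates 2 and 3 (0.79). Ier3, a regulator of ERK signalling and survival, had 12.03, 12.15 and 11.92 in the End arrays, against 11.05, 10.81 and 11.10 in the Control arrays. Its difference of 1.04 ± 0.16 was about as large in replicate 1 (0.97) as in replicates 2 and 3 (1.08). Dusp4, an ERK phosphatase, differed by 0.77, 1.22 and 0.40 in the pairs of replicates 1, 2 and 3, and its arrays did not overlap. Dusp6, another, differed by 0.84, 0.92 and 0.21; its arrays overlapped, with replicate 1 the lowest in both groups. Of 12 MAP kinase phosphatases, 11 had higher means and 2 did not overlap as higher, beside 59.2% and 5.44% of all genes. Their median was 0.22, and 0.04 without Control replicate 1. Of 14 Sprouty, Spred and other ERK feedback genes, 11 had higher means and 1, Ier3, did not overlap; Spry1, an inhibitor of receptor tyrosine kinase signalling, was lower in each pair (-0.60, -0.48 and -0.55) with overlapping arrays.

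Zfp36 encodes tristetraprolin, which binds AU-rich elements in inflammatory and early mRNAs and speeds their decay. It had 8.82, 9.37 and 9.22 in the End arrays, against 7.38, 8.23 and 8.20 in the Control arrays. The groups did not overlap, the difference was 1.20 ± 0.30, and replicate 1 (1.44) and replicates 2 and 3 (1.09) were alike in size. Among 11 genes of mRNA decay and deadenylation, 7 had higher means and 3 did not overlap as higher, beside 59.2% and 5.44% of all genes. These 3 were Zfp36, Btg2 and Btg1 (0.30 ± 0.10).

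Chemokine genes, which encode attractants of leukocytes, mostly had higher means. Of 15 measured, 12 had higher means and 5 did not overlap as higher, with a median of 0.32 that was 0.09 without Control replicate 1. Ccl7, which attracts monocytes, had 8.07, 8.83 and 8.67 in the End arrays, against 7.19, 7.54 and 7.98 in the Control arrays, which did not overlap. Cxcl1, a neutrophil chemokine, had 8.02, 8.16 and 8.34 in the End arrays, against 6.77, 7.52 and 7.84 in the Control arrays, again without overlap. Ccl2, the main monocyte chemokine, had 9.60, 10.94 and 10.86 in the End arrays, against 7.51, 10.21 and 10.14 in the Control arrays. The End array of replicate 1 lay below 2 of the Control arrays of Ccl2, so the groups overlapped, and the difference was 2.08 in replicate 1 but 0.73 in the other pairs. Cxcl10, an interferon-induced chemokine, differed by 1.04 ± 0.59 without overlap, with 1.61 in replicate 1 and 0.76 in replicates 2 and 3. Among 20 targets and feedback genes of NF-kB, 13 had higher means, 3 did not overlap as higher and 2 as lower. The shares over all genes were 59.2%, 5.44% and 1.9%. The 3 higher were Tnfaip3 (0.76 ± 0.31), which encodes the deubiquitinase A20, Rel (0.67 ± 0.22), an NF-kB subunit, and Nfkbia (0.65 ± 0.33), its inhibitor. Nfkbia differed by 1.235 in replicate 1 and 0.36 in replicates 2 and 3. The 2 lower were Bcl3 (-0.32 ± 0.15), an NF-kB cofactor, and Irf1 (-0.35 ± 0.19), a transcription factor of interferon genes.

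In the prostaglandin pathway, Ptgs2 differed most. It encodes COX2 and had 10.48, 11.00 and 9.55 in the End arrays, against 9.88, 8.13 and 7.52 in the Control arrays. The Control array of replicate 1 lay above the End array of replicate 3, so the groups overlapped. The difference was 1.83 ± 0.65, a 3.56-fold higher mean, with 0.60 in replicate 1 and 2.45 in replicates 2 and 3. Ptger4, the EP4 receptor, had 9.04, 10.04 and 9.66 in the End arrays, against 7.90, 9.22 and 9.18 in the Control arrays. The Ptger4 groups overlapped, and the difference was 0.82 ± 0.41, or ± 0.20 with the replicate block. Ptger2 had 5.31, 5.31 and 5.25 in the End arrays, against 4.93, 5.29 and 5.47 in the Control arrays. The Ptger2 difference of 0.06 ± 0.17 was within the spread, with a 95% interval of -0.32 to 0.44. The mean of Ptger2 over all arrays, 5.39, was near the 25th percentile of all rows (5.27). Whether its signal lies above background is not known, so an absence of change cannot be read from it. Of all 18 members of the pathway, 13 had higher means, beside 59.2% of all genes, with a median of 0.04. Only 1, Ptger1 (0.22 ± 0.15), did not overlap as higher, beside 5.44% of all genes.

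Genes that FoxO factors and nutrient withdrawal raise in other cells differed in both directions, and none passed the test. Of 18 measured, 15 had higher and 3 lower means, and 6 did not overlap as higher. Over all genes, 59.2% had higher means and 5.44% did not overlap as higher. The list medians were 0.31, 0.16 and 0.14 in the pairs of replicates 1, 2 and 3. Fbxo32 (atrogin-1), a ubiquitin ligase subunit, had 9.53, 8.79 and 8.86 in the End arrays, against 8.36, 8.21 and 7.90 in the Control arrays. Bcl6, a transcriptional repressor, had 10.10, 9.94 and 9.81 in the End arrays, against 9.40, 9.31 and 9.10 in the Control arrays. Pik3ip1, an inhibitor of PI3 kinase, had 9.57, 9.58 and 9.65 in the End arrays, against 9.09, 9.17 and 9.03 in the Control arrays. For these 3 genes every End array was above every Control array, with differences of 0.91 ± 0.21, 0.68 ± 0.17 and 0.50 ± 0.11. Klhl24 (0.55 ± 0.29) did not overlap either. The largest difference of the list was a lower one, that of Txnip (-0.97 ± 0.44; chosen after its values were seen), whose arrays overlapped. Bmf, a pro-death BH3-only member of the BCL2 family, had 9.50, 9.50 and 9.65 in the End arrays, against 8.39, 8.39 and 8.74 in the Control arrays. Its difference was of like size in replicate 1 (1.11) and in replicates 2 and 3 (1.01), and 10 of the 14 BCL2 family members had higher means. Ppargc1a, a co-activator of mitochondrial genes, differed by 0.60 ± 0.20 without overlap.

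At Post-2hr the means of several of these genes lay below Control, some within the SE. The Post-2hr mean minus the Control mean was -0.63 ± 0.20 for Bmf, -0.19 ± 0.21 for Fbxo32 and -0.10 ± 0.17 for Bcl6. It was -0.30 ± 0.11 for Pik3ip1 and -0.89 ± 0.20 for Ppargc1a. None of these differences from Control passed the adjusted threshold. Over the FoxO list the median was 0.17 at End, -0.11 at Post-2hr and -0.15 at Post-24hr; these 3 values share the Control arrays. The comparison of Post-2hr with End, which does not use the Control means and was added after the data were seen, had 6 of 23332 rows past the threshold (0.0257%), 3 higher and 3 lower in Post-2hr. Bmf was among those that fell, by 1.67 ± 0.20 (limma adjusted p = 0.0456). Since Bmf was named for its high End values, its fall from End is not separate support for them. Plaur, the urokinase receptor, was among those that rose, by 1.02 ± 0.10 (limma adjusted p = 0.0196). Plaur was already higher at End, at 8.78, 9.08 and 8.77, against 8.50, 8.25 and 8.34 in Control. Of the 4 groups, the mean of Bmf was highest in End cells and that of Plaur in Post-2hr cells. The 6 calls depended on single arrays, since 0 passed without the End array of replicate 1 or 3 or the Post-2hr array of replicate 3. Among early genes, Junb was higher than Control by 1.61 at End, 0.86 at Post-2hr and 0.68 at Post-24hr, and Fosl1 by 0.49 at End, 1.68 at Post-2hr and 0.69 at Post-24hr.

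**Figure D3:**
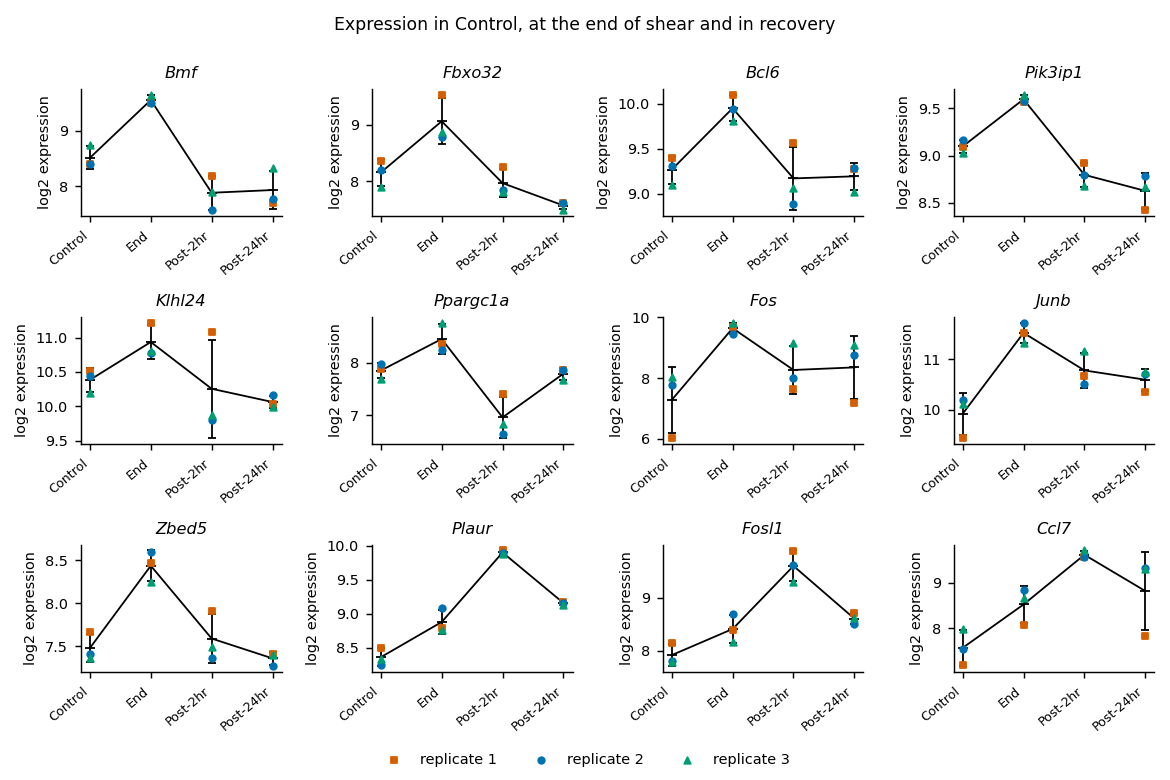
Log2 expression of 12 genes in Control, End, Post-2hr and Post-24hr cells, with points for the arrays of replicates 1, 2 and 3 and a line through the means ± SD of 3 arrays. Bmf, Fbxo32, Bcl6, Pik3ip1, Klhl24, Ppargc1a, Fos, Junb and Zbed5 have their highest mean at End, and Plaur, Fosl1 and Ccl7 at Post-2hr.

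Most clock and glucocorticoid-type genes had higher means. Bhlhe40, a repressor in the clock loop, had 10.95, 10.20 and 9.70 in the End arrays, against 9.51, 8.53 and 8.71 in the Control arrays. The groups did not overlap and replicate 1 was the highest array in both. Bhlhe41, its paralog, differed by 0.40, 0.38 and 0.41 in the pairs of replicates 1, 2 and 3, without overlap. Of 14 clock genes, 10 had higher means, beside 59.2% of all genes. The 4 that did not overlap as higher were Bhlhe40, Bhlhe41, Nr1d2 and, named after its values were seen, Tef. The clock median was 0.15, and 0.09 without Control replicate 3. In all 3 pairs, 9 clock genes were higher and 2 lower. The 2 lower were Clock (-0.20, -0.13 and -0.16) and Npas2 (-0.13, -0.14 and -0.14), both with overlapping arrays. Of 10 glucocorticoid targets, 8 had higher means, with a median of 0.41 and 2 without overlap: Fkbp5 (0.56 ± 0.19), a co-chaperone of the receptor, and Ddit4 (0.43 ± 0.17), an inhibitor of mTORC1. Sterol genes were higher in mean for 18 of 18 members, with 3 without overlap, among them Insig1 (0.51 ± 0.22). Their median was 0.16, and 0.08 without End replicate 3. Beside the counts without overlap in this paragraph, 5.44% of all genes did not overlap as higher.

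The genes by which endothelium is known to respond to flow gave a mixed picture. Klf2, a flow-induced endothelial factor, had 7.61, 7.78 and 7.87 in the End arrays, against 7.30, 7.75 and 7.80 in the Control arrays. The Klf2 groups overlapped, and the 95% interval of the difference ran from -0.31 to 0.59. Klf4, its relative, differed by 0.14 ± 0.70 with an interval of -1.42 to 1.69, and replicate 1 was its highest array in both groups. The Klf4 pairs of replicates 1, 2 and 3 differed by 0.14, 0.43 and -0.16, and the SE with the replicate block was 0.11. Thbd, the anticoagulant receptor thrombomodulin, was lower in all End arrays, at 5.46, 5.07 and 5.29, against 5.55, 5.50 and 6.03 in Control. Its End values also lay around the 25th percentile of level over all rows (5.27). Of 17 genes on this list, 14 had higher means, 2 did not overlap as higher and 1, Thbd, as lower. The shares over all genes were 59.2%, 5.44% and 1.9%. The list median was 0.14, and 0.06 without Control replicate 1. Of 12 Krüppel-like factors, 10 had higher means and 4 did not overlap as higher, among them Klf10 (0.55 ± 0.19) and Klf5 (0.37 ± 0.09).

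Fewer genes were lower. Adm, which encodes the vasodilator peptide adrenomedullin, had 4.54, 5.38 and 5.68 in the End arrays, against 6.11, 6.23 and 6.74 in the Control arrays. No End array reached the lowest Control array, and the difference was -1.16 ± 0.41, a 2.24-fold lower level. The End values of Adm lay around the 25th percentile of level over all rows (5.27), where signal over background is not known. Pde4b, a cAMP phosphodiesterase, had 8.19, 7.83 and 7.97 in the End arrays, against 8.46, 9.10 and 8.38 in the Control arrays. Inhba, a subunit of activin, had 8.72, 8.77 and 8.59 in the End arrays, against 9.26, 9.13 and 9.09 in the Control arrays. Neither overlapped, with differences of -0.64 ± 0.20 and -0.47 ± 0.25. Cish, a STAT5-induced inhibitor of cytokine signalling, had 9.15, 10.10 and 10.15 in the End arrays, against 9.90, 10.80 and 10.98 in the Control arrays. The groups of Cish overlapped because replicate 1 was low in both, yet the difference was -0.75 in replicate 1 and -0.77 in replicates 2 and 3. With the replicate block its adjusted p was 0.208, shared with Junb, Zfp36 and Zbed5. Of 19 interferon response genes, 16 had lower means, 3 did not overlap as lower and 1, Cxcl10, as higher. The shares over all genes were 40.8%, 1.9% and 5.44%. The interferon median was -0.11, with -0.27 without Control replicate 1 and -0.03 without End replicate 1. It was -0.002 in replicate 1 and -0.15 in replicates 2 and 3.

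**Figure D4:**
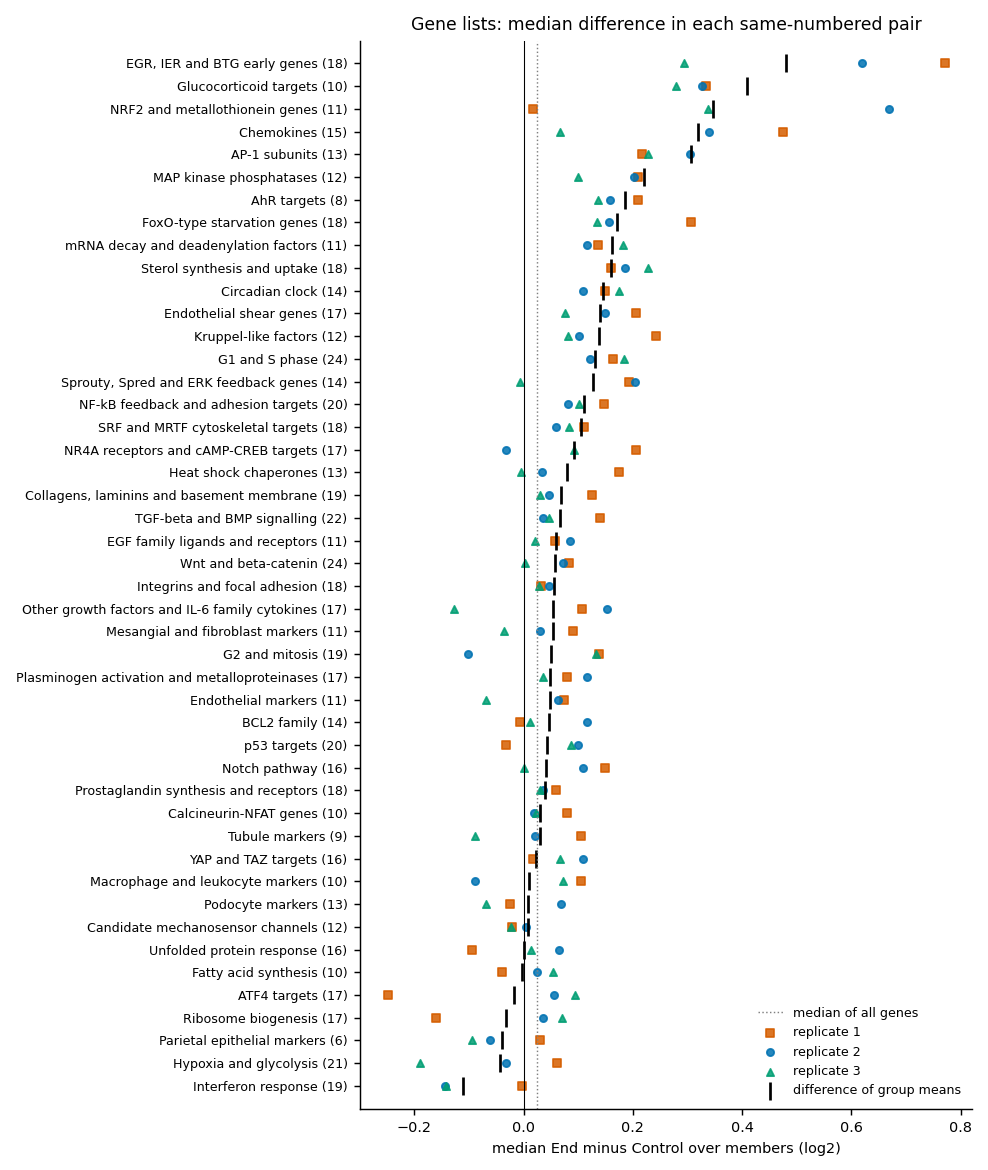
Median End minus Control difference over the members of each gene list (number of measured genes in brackets), in the same-numbered pairs of replicate 1, 2 and 3 (squares, circles and triangles) and between group means (black bars), with the median of all genes dotted. The EGR, IER and BTG list has the highest median (0.48) and the interferon list the lowest (-0.11), and the NRF2 and metallothionein list is near 0 in replicate 1 (0.02) but not in replicates 2 (0.67) and 3 (0.34).

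For some genes the difference had another size or sign in replicate 1 than in replicates 2 and 3. In the test of that difference, 0 of 23332 rows passed (0.0%), the lowest adjusted p was 0.0751, and 1228 rows had an unadjusted p under 0.05 (5.26%). The genes in this paragraph were chosen after their values were seen. Txnip, an inhibitor of thioredoxin and glucose uptake, had 11.42, 10.40 and 10.70 in the End arrays, against 11.09, 12.04 and 12.29 in the Control arrays. It was higher by 0.33 in replicate 1 and lower in replicates 2 and 3 (-1.62), a difference between sets of 1.95 ± 0.26. Id3, an inhibitor of helix-loop-helix factors, was 0.44 higher in replicate 1 and lower in the other pairs (-0.96), a difference between sets of 1.40 ± 0.13 (limma adjusted p = 0.322). Dusp1, a MAP kinase phosphatase, had 12.74, 12.54 and 12.64 in the End arrays, against 11.47, 12.74 and 12.54 in the Control arrays. Among the Dusp1 arrays only Control replicate 1 was low. Hmox1, the haem-degrading enzyme, had 12.65, 12.81 and 12.17 in the End arrays, against 12.55, 11.28 and 11.02 in the Control arrays. Control replicate 1 of Hmox1 lay with the End arrays, and the other Control arrays lay below them. Mt2, a metallothionein, differed by -0.05 in replicate 1 and by 1.24 in replicates 2 and 3.

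**Figure D5:**
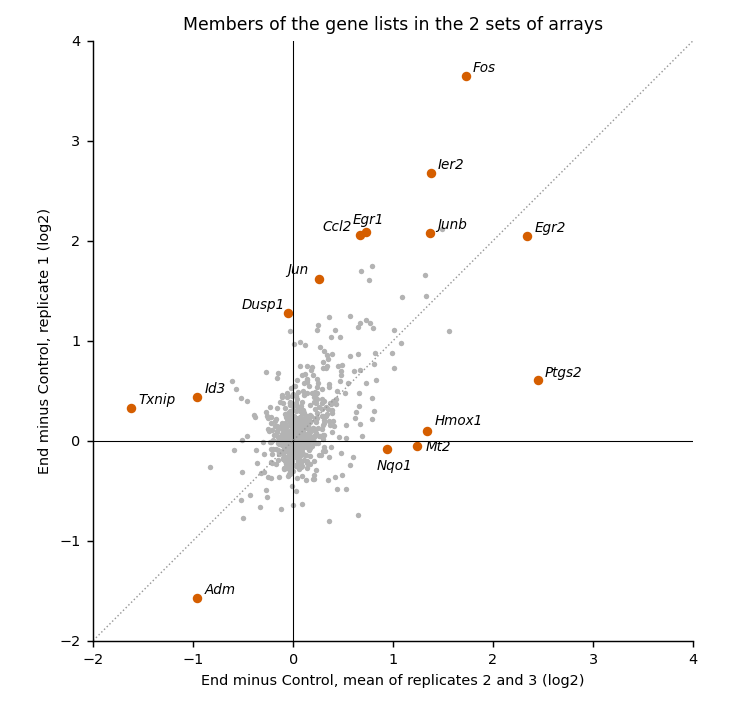
End minus Control in replicate 1 plotted against the mean of replicates 2 and 3 for 648 genes of the lists, in log2 units, with the dotted line of equal differences. Fos, Ier2, Junb, Egr2 and Adm have the same sign in both sets, Txnip and Id3 have opposite signs, and Dusp1, Mt2, Nqo1 and Hmox1 are near 0 in one set.

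Lists of mechanically responsive structures had small median differences, some of which moved when 1 array was left out. Targets of YAP and TAZ had a median of 0.02 over 16 members, integrins and focal adhesion genes 0.06 over 18, candidate mechanosensor channels 0.01 over 12, and calcineurin and NFAT genes 0.03 over 10, with 0 members without overlap in each. The YAP and TAZ median was -0.08 without Control replicate 1 and 0.25 without End replicate 1. That of integrins and focal adhesion genes was -0.05 and 0.14. For SRF and MRTF cytoskeletal targets, 16 of 18 means were higher, beside 59.2% of all genes, and 0 did not overlap. Their median was 0.11, and -0.03 without Control replicate 1. Ccn2, a matricellular target of YAP, had 12.59, 13.71 and 13.48 in the End arrays, against 11.44, 13.42 and 13.29 in the Control arrays. Its groups overlapped, with 1.15 in replicate 1 and 0.25 in replicates 2 and 3. Axin2, a Wnt target, differed by 0.11 ± 0.20, and Ctnnb1, which encodes beta-catenin, by 0.08 ± 0.09, with a 95% interval of -0.12 to 0.29.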

How the data were processed

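Each of the 12 RNA samples was measured on an Affymetrix Mouse Exon array, and probes over a gene's exons were combined into 1 value, per the labels' protocols. The authors deposited log2 values made with RMA and Partek, per the submitters' processing notes, which give no version, order or setting. Since RMA equalises array distributions, a change in total RNA per cell cannot be seen. The 23332 rows hold 0 missing values between 1.63 and 14.23; 14996 name 1 gene, 1019 several and 7317 none here, and 0 columns were left unused. For arrays, their number limits the precision: the median 95% half-width of a difference was 0.361. Genes with several rows were represented by the brightest, giving 14860 genes.

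All 12 arrays entered 1 linear model with a mean per group (lmFit and eBayes of limma 3.58.1 under R 4.3.3), with Benjamini-Hochberg adjustment over all rows and a threshold of 0.05. A model with separate means for replicate 1 and for replicates 2 and 3 tested the difference between these sets. Differences are End minus Control with the SE of the model with a mean per group. That model has no term for replicate number, so differences in level between replicates enter the SEs and intervals. The median SE over all rows was 0.162, against 0.115 with the replicate block. The methods were tested on simulated data. The main model did not pair the arrays, and replicate numbers were taken as pairs only for the pair differences and the block. Deviations from the group means of same-numbered End and Control arrays correlated at 0.61, 0.26 and 0.25. The last 2 are no higher than the 0.33 of End replicate 2 with Control replicate 3. Replicate 2 minus 3 in End against the same in Control gave -0.02. These values set replicate 1 apart but do not show that replicates 2 and 3 are paired.

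Named genes were the 15 largest differences each way among genes without overlap at or above the 25th percentile of level, the 8 smallest p each way with and without the block, up to 4 members each way of each of 46 lists that differed alike in all 3 pairs, and 14 fixed genes; others are said to be chosen after their values were seen. Predicted gene models were left out. The members, lists and rules were chosen with earlier results of these data known. Alternatives were the block, replicate 1 set apart, replicates 2 and 3 only, median centring, quantile normalization, filters on level, 1-symbol rows, an intensity trend, array weights and each array left out. Promoters and gene coordinates are RefSeq's (GRCm38.p6); the build used to make the array values was not given in the sources used here.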

Additional observations from a re-analysis of the deposited data

How the results depend on the processing

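For End minus Control, 0 rows passed in every setting but array weights, with which 77 passed (44 higher and 33 lower). Those weights ran from 0.339 (Post-2hr replicate 1) to 5.86 (Control replicate 2). Leaving out each array in turn gave 0 rows past the threshold each time. List medians moved more: without Control replicate 1 those of chemokines (0.09), MAP kinase phosphatases (0.04), endothelial shear genes (0.06) and SRF and MRTF targets (-0.03) were all over 1.5 times smaller or of the other sign, and that of the NF-kB list was -0.02 against 0.11. The NRF2 and metallothionein median was 0.04 without End replicate 1, against 0.35. With 1 array left out, medians of the EGR, IER and BTG list lay between 0.42 and 0.59. Those of the FoxO list then lay between 0.15 and 0.20. Using replicates 2 and 3 only, the medians of these lists were 0.41 and 0.14. With the replicate block 0 passed, as without it, and the block changed no call; it moved the count of unadjusted p under 0.05 to 1690 rows. For the difference between replicate 1 and replicates 2 and 3, 1 row passed with an intensity trend in the variance. For Post-2hr minus End, 36 rows passed with replicate 1 set apart, and 0 to 5 with 1 array left out, with 0 without End replicate 1, End replicate 3 or Post-2hr replicate 3, 1 without Control replicate 3, 2 without Control replicate 2, End replicate 2 or Post-2hr replicate 2, and 3 without Control replicate 1 or Post-24hr replicate 2. The cause was not tested in any of these. Of 233 named genes, 173 kept their sign in all planned settings and 60 had the opposite sign somewhere, and 52 of 920 list medians changed sign. Detection calls were not used here, so signal over background limits what dim rows such as Krtap4-7 can show.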

Other observations

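Developmental signalling genes differed in both directions. Of 16 Notch pathway genes, 10 had higher means, which is near the 59.2% of all genes. Among the 16, 2 did not overlap as higher and 1 as lower, beside 5.44% and 1.9% of all genes. Notch1, the receptor, had 10.14, 9.94 and 10.19 in the End arrays, against 10.47, 10.26 and 10.51 in the Control arrays. Every End array of Notch1 was lower, by 0.32 in replicate 1 and in replicates 2 and 3 alike. Hes1, a repressor that Notch induces, had 9.75, 10.07 and 9.94 in the End arrays, against 8.72, 9.55 and 9.68 in the Control arrays, higher without overlap. Of 22 TGF-beta and BMP genes, 14 had higher means, beside 59.2% of all genes; 3 did not overlap as higher, among them Skil (0.47 ± 0.33), a Smad co-repressor, and 2 as lower, Inhba (-0.47 ± 0.25) and, named after its values were seen, Acvr1b (-0.13 ± 0.09), an activin receptor. Skil differed by 0.05 in replicate 1 and 0.68 in replicates 2 and 3, and its lowest End value (8.94) barely exceeded its highest Control value (8.92).

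Of 13 heat shock chaperones, 8 had higher and 5 lower means, and 4 did not overlap as higher, beside 5.44% of all genes. In all pairs, 5 members were higher and 3 lower. Dnajb1, a cofactor of HSP70, had 10.57, 10.61 and 10.40 in the End arrays, against 9.72, 10.18 and 10.15 in the Control arrays. Bag3, another cofactor, differed by 0.44 ± 0.18. The median of the list was 0.08, and 0.008 without Control replicate 1. Genes of G1 and S phase had higher means in 19 of 24 members, with a median of 0.13 that was 0.0077 without Control replicate 1. Those of G2 and mitosis had higher means in 13 of 19, with a median of 0.05. Over all genes 59.2% of the means were higher.

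Zbed5, a gene derived from a transposase, had 8.47, 8.60 and 8.25 in the End arrays, against 7.67, 7.41 and 7.36 in the Control arrays. It was higher in every End array, by 0.96 ± 0.15; its mean minus that of Control was 0.11 at Post-2hr and -0.12 at Post-24hr. Krtap4-7, a hair keratin-associated gene, had 4.31, 4.32 and 4.32 in the End arrays, against 5.18, 5.22 and 5.20 in the Control arrays, below the 25th percentile of level over all rows.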
